A study of Arabidopsis thaliana with 27 samples.

Results

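Leaves of Arabidopsis thaliana infected with Psm were set against leaves infected with hrcC at the same labelled time, 24 h after infiltration. The contrast used 8 of the 9 arrays labelled set 3 in a series of 27 arrays. The remaining array of set 3 held the cbp60h mutant with hrcC at 9 h and is not part of the contrast. The arrays were chosen by their titles, 4 with Psm and 4 with hrcC, and all 181 probes of the array that carry a single gene name were compared. Psm is the label for Pseudomonas syringae ES4326, and hrcC stands for a strain of Pseudomonas syringae pv. tomato, DC3000 hrcC, without a working type III secretion system. Each strain was infiltrated by syringe, at the same labelled dose, into leaves of plants with a labelled age of 4 weeks. There were 4 genotypes: the cbp60g,cbp60h,pad4 triple mutant, the cbp60g,cbp60h double mutant, pad4-1 and wild type Col-0. Each array held RNA pooled from 2 leaves per plant and 3 pots, and set 3 had 1 array per genotype and strain. The genotypes therefore served as the 4 replicates of the strain contrast, as 4 pairs. The alleles of cbp60g and cbp60h are not given in the labels, nor is the pad4 allele of the triple mutant, and CBP60g, CBP60h and PAD4 are not among the named probes, so the genotypes were not checked here. Psm and DC3000 are different strains of the species as well as differing in secretion, and these cannot be told apart in this contrast.

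Pseudomonas syringae injects effector proteins into plant cells through its type III secretion system, and many of these proteins dampen defence. A strain that cannot secrete them still displays flagellin and other bacterial molecules that leaf cells sense through surface receptors, which gives pattern-triggered immunity. The related transcription factors CBP60g and CBP60h (the second also named SARD1) promote the synthesis of salicylic acid during such infections, and PAD4 is a lipase-like partner of EDS1 that strengthens the same hormone's signaling.

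Levels are the deposited log2 intensities, and a difference is Psm minus hrcC on that scale, where 1 unit is a factor of 2 provided that base 2, read from the values, is right. Array medians over all 576 probes lay between 4.23 and 4.50 with Psm and between 3.94 and 4.15 with hrcC, and the lowest value of an array lay between 1.05 and 1.62. The table holds no signal over background, and the number of arrays limits the precision. Over all probes, the Psm and the hrcC array of one genotype correlated at 0.614 to 0.708, the 4 Psm arrays among themselves at 0.801 to 0.949 and the 4 hrcC arrays at 0.878 to 0.949. The hrcC arrays of set 3, labelled 24 h, correlated at 0.902 to 0.974 with the hrcC 9 h arrays of the same genotype in sets 1 and 2, which correlated with each other at 0.916 to 0.965. No gene was used to check the labelled time, and the leaf markers of the fixed list have 0 measured members. LHCB4.3, a chlorophyll-binding protein gene chosen after its values were seen, stood at 4.08 with Psm and 4.51 with hrcC and was not called (adjusted p = 0.316 in limma). In the limma fit over all arrays with the set as replicate block it was called lower (-0.515, adjusted p = 0.0474).

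Leaves with Psm had higher levels of several enzyme genes, among them the chitinase gene CHI, the berberine bridge enzyme-like gene AT2G34810 and the glutathione S-transferase gene GSTF3, and of the glutaredoxin gene GRX480. They had far lower levels of another chitinase gene, AT2G43620, of the protease inhibitor gene AT2G38870, of the peroxidase gene AT5G64120 and of the plant defensin gene PDF1.2. Mean differences ran from -5.19 for AT2G43620 to 3.92 for AT1G76960, with a median of 0.16 over the 181 genes. In limma, with genotype as a block and Benjamini-Hochberg adjustment over the 181 genes, 55 genes (30.4%) had an adjusted p under 0.05 and are called changed below. Of these, 39 (21.5%) were higher with Psm and 16 (8.84%) were lower. Taking the spread from the arrays of other groups called 90 genes, 53 of the 55 among them. A difference beyond 1 in size was found for 37 of the higher and 14 of the lower genes. In whole leaves, a change in the number of cells of a type and a change of RNA per cell cannot be told apart.

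The split between higher and lower genes depended on how the arrays were scaled. Re-centring each array on its median took 0.33 from every difference and gave 25 higher and 27 lower genes, and quantile normalization gave 25 higher and 28 lower, against 39 and 16 as deposited. Centring on the 20 probes that varied least in sets 1 and 2 gave 39 higher and 17 lower. These probes were picked as steady across both strains on the deposited scale, so this setting stays close to that scale by its making. It cannot decide which split is right. None of the 16 falls was lost under these scalings, whereas 14 of the 39 rises were lost both after median centring and after quantile normalization.

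The 4 Psm arrays did not overlap with the 4 hrcC arrays for 48 of the 181 genes (26.5%), and 38 of these were called, 27 higher and 11 lower. The difference had the same sign in all 4 genotypes for 79 genes (43.6%), of which 53 were higher and 26 lower with Psm. Among the 55 called genes 52 had the same sign in all 4. Across the 181 genes, the differences of any pair of genotypes correlated at 0.656 to 0.842. These are correlations over genes, which are not independent replicates.

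AT1G76960 had the largest rise. Its level with Psm was 7.63 in the triple mutant, 9.54 in the double mutant, 9.96 in pad4-1 leaves and 9.80 in Col-0, against 3.02, 6.04, 6.15 and 6.04 with hrcC in the same order. The triple mutant was the lowest genotype with both strains, and its Psm array was still above every hrcC array. The mean difference was 3.92 (SE 0.28, adjusted p = 1.42e-05 in limma, n = 4 pairs), and the 4 pairs differed by between 3.50 and 4.62.

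CHI (AT2G43570), which encodes a chitinase that splits the chitin of fungal walls, stood at 6.21 in the triple mutant, 6.83 in the double mutant, 8.35 in pad4-1 leaves and 8.19 in Col-0 with Psm. With hrcC the same genotypes stood at 3.08, 3.98, 3.50 and 5.31. All Psm arrays lay above all hrcC arrays, and Col-0 was highest with hrcC while pad4-1 was highest with Psm. CHI rose by 3.43 on average (SE 0.36, adjusted p = 0.000234). The difference was 4.84 in pad4-1, against 2.85 to 3.13 in the other genotypes.

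The 2 other measured chitinase genes went the other way. AT2G43620, the largest fall of all, had 5.16 in the triple mutant, 4.21 in the double mutant, 4.61 in pad4-1 leaves and 4.72 in Col-0 with Psm, against 10.93, 9.55, 9.88 and 9.11 with hrcC. No array came near to overlapping, and the 4 differences lay between -5.77 in the triple mutant and -4.39 in Col-0, with a mean of -5.19 (SE 0.29, adjusted p = 3.76e-06). AT4G01700 averaged 4.18 ± 0.34 with Psm and 5.68 ± 0.58 with hrcC (SD, n = 4 each), a difference of -1.50 (SE 0.32, adjusted p = 0.00681). The double mutant differed by only -0.37 there, against -1.95 to -1.75 in the other genotypes, and without the Col-0 pair the call was lost (-1.36, adjusted p = 0.0567). Of the 3 chitinase genes, then, 1 rose and 2 fell, against 21.5% higher and 8.84% lower over all genes. The family was formed after the values had been seen.

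**Figure D1:**
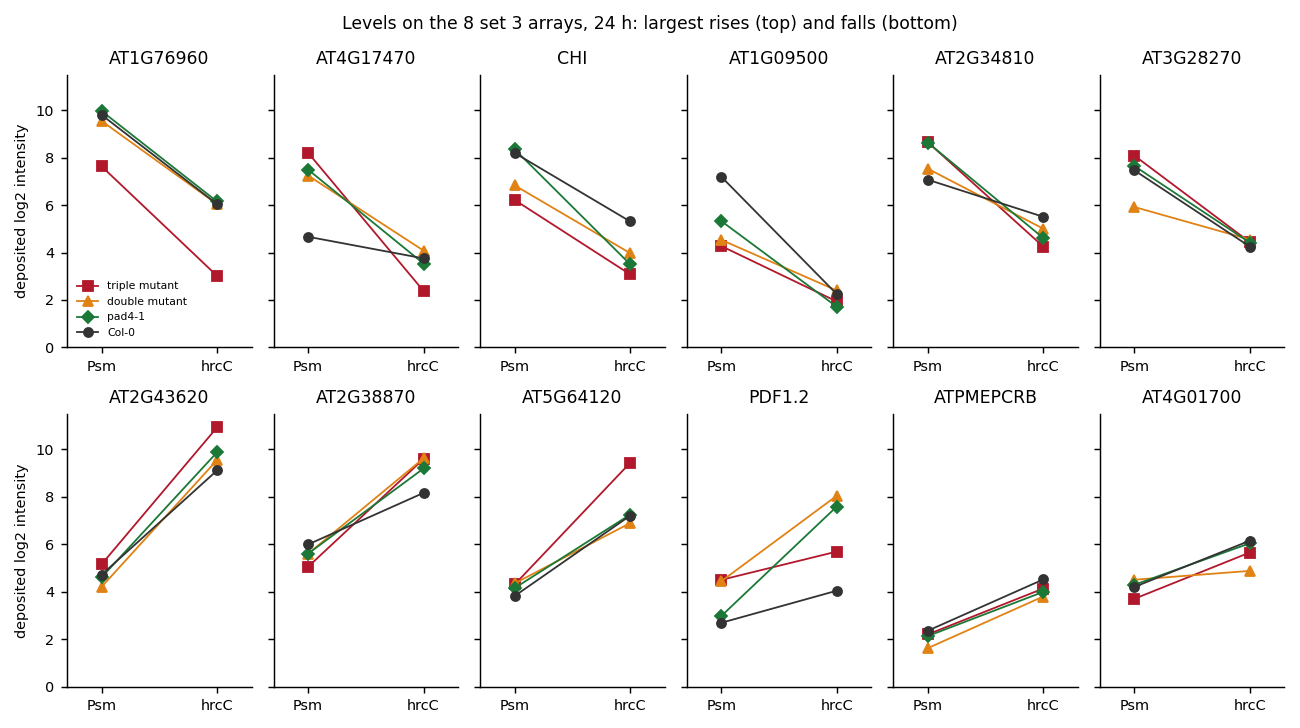
Deposited log2 intensity (y axis) with Psm and with hrcC at 24 h (x axis) for the 6 genes with the largest rises (top) and the 6 with the largest falls (bottom) by the naming rule; each point is 1 array, and a line joins the arrays of one genotype. For AT2G43620 the Psm points lie between 4.21 and 5.16 and all hrcC points above 9, while for PDF1.2 the lines are of unequal steepness and the groups overlap.

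AT2G38870, a protease inhibitor gene of the kind whose products block the proteases of attackers, had 5.06 in the triple mutant, 5.61 in the double mutant, 5.61 in pad4-1 leaves and 6.0 in Col-0 with Psm. With hrcC the values were 9.60, 9.63, 9.20 and 8.17. The groups did not overlap, and Col-0 was the highest genotype with Psm and the lowest with hrcC. On average it fell by 3.58 (SE 0.38, adjusted p = 0.000234).

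AT5G64120 encodes a class III peroxidase, an enzyme of the cell wall that uses hydrogen peroxide. It lay between 3.83 and 4.36 on all 4 Psm arrays, against 9.44 in the triple mutant, 6.90 in the double mutant, 7.25 in pad4-1 leaves and 7.21 in Col-0 with hrcC. The Psm arrays were close together, and the hrcC array of the triple mutant stood above the other 3. The mean difference was -3.53 (SE 0.40, adjusted p = 0.000234). The other 2 measured peroxidase genes, AT2G37130 and AT5G19890, were not called as deposited. AT2G37130 was called lower after median centring and after quantile normalization.

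PDF1.2 (AT5G44420), a plant defensin gene widely used as a marker of the combined jasmonate and ethylene response, had 4.50 in the triple mutant, 4.45 in the double mutant, 2.98 in pad4-1 leaves and 2.69 in Col-0 with Psm. With hrcC it had 5.69, 8.04, 7.59 and 4.05. The groups overlapped, since Col-0 with hrcC was lower than 2 of the Psm arrays, but each genotype was lower with Psm than with hrcC. Averaged over genotypes the difference was -2.69 (SE 0.54, adjusted p = 0.00488). It ranged from -4.61 in pad4-1 to -1.19 in the triple mutant, 1 of the 5 widest spreads over genotypes among all genes. A second gene of the defensin type, AT3G59930, rose by 2.59 (SE 0.29, adjusted p = 0.000234), at 4.45 to 5.51 with Psm against 2.17 to 2.95 with hrcC. These hrcC levels lay toward the low end of the arrays, which limits what can be read from the size of the rise.

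GRX480 (AT1G28480) encodes a glutaredoxin that is induced by salicylic acid and binds TGA transcription factors. Its level with Psm was 6.73 in the triple mutant, 8.39 in the double mutant, 8.52 in pad4-1 leaves and 8.28 in Col-0, against 3.46, 5.95, 5.77 and 6.59 with hrcC. All Psm arrays lay above all hrcC arrays, although the triple mutant with Psm exceeded Col-0 with hrcC by little. The mean difference was 2.54 (SE 0.30, adjusted p = 0.000242), and it was 3.26 in the triple mutant, 2.45 in the double mutant, 2.74 in pad4-1 leaves and 1.70 in Col-0. WRKY53, the other measured gene of the salicylic acid response list, was not called, with differences of -1.33, -1.50, 0.37 and 0.21 in the same order (mean -0.56, adjusted p = 0.284).

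Several other genes of metabolism had higher levels with Psm on every array. AT1G09500, an alcohol dehydrogenase-like gene, had 4.27 in the triple mutant, 4.53 in the double mutant, 5.33 in pad4-1 leaves and 7.20 in Col-0 with Psm, against 1.72 to 2.40 with hrcC. Col-0 with Psm was the highest array by a wide step, and the mean difference was 3.26 (SE 0.44, adjusted p = 0.000487). Its hrcC levels lay near the lowest values of the arrays, which limits what can be read from the size of the rise. AT2G34810 belongs to the berberine bridge enzyme-like oxidases. It stood at 8.65 in the triple mutant, 7.53 in the double mutant, 8.63 in pad4-1 leaves and 7.07 in Col-0 with Psm, against 4.25, 5.0, 4.61 and 5.51 with hrcC. Here Col-0 was the lowest genotype with Psm and the highest with hrcC, and the mean difference was 3.13 (SE 0.45, adjusted p = 0.000599). GSTF3 (AT2G02930), a glutathione S-transferase gene whose product couples glutathione to reactive compounds, lay at 7.76 to 8.65 with Psm and 4.62 to 6.18 with hrcC, a rise of 2.62 (SE 0.39, adjusted p = 0.000769).

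The other rises that the naming rule selected were as follows. AT3G28270 rose by 2.86, and AT2G32150, a gene of the haloacid dehalogenase-like hydrolases, by 2.70. Both had narrow hrcC arrays, at 4.25 to 4.55 and 4.47 to 4.73, and in both the double mutant was the lowest with Psm, at 5.92 and 5.94, against at least 7.33 in the other genotypes. AT1G03220, an aspartyl protease gene, rose by 2.76, with differences from 1.23 in the triple mutant to 4.10 in pad4-1. Its hrcC levels in pad4-1 and Col-0, at 2.18 and 2.32, lay toward the low end of the arrays, which limits what can be read from that range. AT1G68620, a carboxylesterase-like gene, rose by 2.62, AT2G29500, a small heat shock protein gene, by 2.38, and AT2G28400 by 2.37. Their adjusted p ranged from 0.000234 to 0.00123, and the Psm arrays of all of them lay above all of their hrcC arrays. The remaining rise, AT4G17470, is described with the genotypes.

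Among the smaller falls, the pectin methylesterase gene ATPMEPCRB (AT4G02330), whose product modifies wall pectin, differed by similar amounts in all genotypes. It stood at 2.21 in the triple mutant, 1.63 in the double mutant, 2.14 in pad4-1 leaves and 2.36 in Col-0 with Psm, against 4.14, 3.80, 4.00 and 4.52 with hrcC. The 4 differences lay between -2.17 and -1.86, with a mean of -2.03 (SE 0.24, adjusted p = 0.000242). Its Psm levels lay near the lowest values of the arrays, which limits what can be read from the size and evenness of these differences. AT3G16370, a GDSL lipase-like gene, fell by 1.45, and AT3G51330, an aspartyl protease gene, by 1.22. The call of AT3G51330 was lost without the Col-0 pair (-1.21, adjusted p = 0.0642). AT2G42360, a RING finger gene, differed by -0.94 (adjusted p = 0.0434), and its call was lost when any 1 genotype pair was left out.

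**Figure D2:**
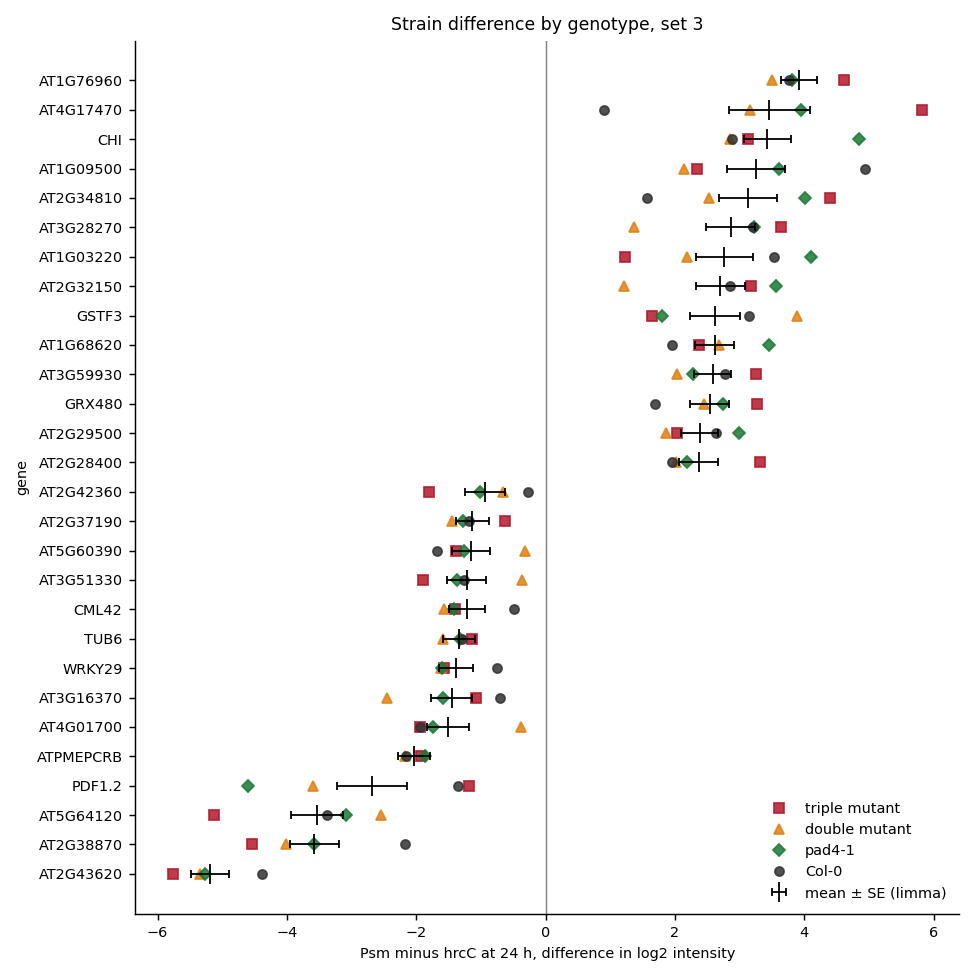
Psm minus hrcC at 24 h in log2 intensity (x axis) for the 28 genes selected by the naming rule (y axis); coloured symbols are the 4 genotypes, and black bars are the mean and its SE from limma. The naming rule admits only genes with the same sign in every genotype. The symbols are tight for ATPMEPCRB (-2.17 to -1.86) and wide for AT4G17470 (0.91 to 5.82).

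Of the 9 listed genes of pattern-triggered immunity, 2 were among the named probes. WRKY29 (AT4G23550), a transcription factor gene of the response to flagellin, had 2.31 in the triple mutant, 1.82 in the double mutant, 1.72 in pad4-1 leaves and 1.98 in Col-0 with Psm, against 3.89, 3.43, 3.33 and 2.73 with hrcC. The groups did not overlap, but the Psm levels lay near the lowest values of the arrays. The mean difference was -1.39 (SE 0.27, adjusted p = 0.00399), with Col-0 the smallest at -0.75. WRKY22, which acts with WRKY29, was not called (-0.47, adjusted p = 0.253), although quantile normalization called it lower. Of the 4 measured WRKY genes 1, WRKY29, was called as deposited, against 30.4% of all genes.

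Both measured genes of the housekeeping and cytoskeleton list, 2 of 7 listed, were lower with Psm, against 8.84% of all genes. AT5G60390, an elongation factor 1-alpha gene with near-identical copies that a probe may not separate, had 7.58 to 7.72 on the 4 Psm arrays, against 9.10 in the triple mutant, 7.98 in the double mutant, 8.93 in pad4-1 leaves and 9.26 in Col-0 with hrcC. Its difference was -1.16 (SE 0.29, adjusted p = 0.0142), and without the Col-0 pair it was -0.99 (adjusted p = 0.0732). The ribosomal protein L11-type gene AT2G37190 had 4.16 to 4.33 with Psm and 4.84 to 5.78 with hrcC, a fall of 1.13 (SE 0.26, adjusted p = 0.00903). The remaining gene of the translation family, AT3G12390, differed by -0.79 and was not called as deposited (adjusted p = 0.0558). The beta-tubulin gene TUB6 (AT5G12250) fell by 1.33 (SE 0.25, adjusted p = 0.00299) and was lower with Psm in each genotype by between 1.59 and 1.13 on the log2 scale, though the groups overlapped.

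The pathway lists held 99 loci, of which 16 were measured: 2 were higher, 7 lower and 7 not called, against 21.5% higher and 8.84% lower over all genes. Their median difference was -0.87, against 0.16 over all genes. The lists were drawn up with earlier results of these data known, so their shares are a description. In some lists a single measured member stood for a whole pathway. UGT76B1, whose product conjugates isoleucic acid and salicylic acid, was not called (-0.13, adjusted p = 0.832). AT2G04400, a gene of indole and tryptophan synthesis, was not called either (0.58, adjusted p = 0.237), nor was COR47, a dehydrin gene of the abscisic acid and cold response (-0.59, adjusted p = 0.11). COR47 was called lower after median centring and after quantile normalization. None of the 6 photosynthesis genes listed was measured.

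Neither of the 2 measured chaperone genes of the pathway list was called as deposited. BIP1 (AT5G28540), an endoplasmic reticulum chaperone gene with a near-identical copy, had 4.82 in the triple mutant, 6.47 in the double mutant, 6.09 in pad4-1 leaves and 5.80 in Col-0 with Psm. With hrcC it had 7.77, 5.91, 6.54 and 7.90. The triple mutant and Col-0 were lower with Psm by 2.95 and 2.10 on the log2 scale, whereas the double mutant was higher by 0.56. The mean of -1.23 (SE 0.51) was not called as deposited (adjusted p = 0.106), but it was after median centring, at -1.57, and after quantile normalization. As deposited, the double mutant's difference exceeded that of Col-0 by 2.66, which was not called in the comparison of genotypes described below. Hsp70-2, a cytosolic chaperone gene, differed by 0.11 (adjusted p = 0.832), and this turned to -0.22 after median centring and -0.16 after quantile normalization. Of the 6 measured chaperone and heat shock genes, 2 rose, against 21.5% of all genes: the small heat shock gene AT2G29500 and AT5G48570, which encodes a peptidyl-prolyl isomerase of the FKBP type. AT5G48570 rose by 1.05, a call lost under both of those scalings and without the Col-0 or the pad4-1 pair. Its hrcC levels, at 1.90 to 2.14, lay near the lowest values of the arrays.

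Gene families were formed by hand after the values had been seen, so their counts are descriptions, and the members named next were chosen in that way. Of 7 glycosyltransferase genes, 3 rose and 4 were not called, against 21.5% higher over all genes, and their median difference was -0.10. UGT76E12 had 4.28 in the triple mutant, 4.60 in the double mutant, 4.22 in pad4-1 leaves and 4.04 in Col-0 with Psm, against 1.69, 1.94, 1.83 and 2.32 with hrcC. Its rise of 2.34 (SE 0.27, adjusted p = 0.000234) lay between 1.72 in Col-0 and 2.66 in the double mutant. The hrcC levels lay near the lowest values of the arrays, which limits what can be read from the size and evenness of this rise. IAGLU, which encodes an enzyme that attaches glucose to auxin, rose by 1.49 (adjusted p = 0.00362). Its Psm arrays lay at 3.61 to 4.37 and its hrcC arrays at 2.10 to 2.78, also toward the low end of the arrays. The third was UGT84A3, a glucosyltransferase gene of phenylpropanoid metabolism, which rose by 1.27 (adjusted p = 0.0247) as deposited but lost the call under both median centring and quantile normalization and without the triple mutant pair (0.87, adjusted p = 0.0759).

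Of 5 genes for EF-hand proteins, which bind calcium, 3 rose, 1 fell and 1 was not called, against 21.5% higher and 8.84% lower over all genes. AT5G39670 had 3.21 in the triple mutant, 5.40 in the double mutant, 5.12 in pad4-1 leaves and 7.19 in Col-0 with Psm, against 2.34, 4.24, 3.46 and 3.99 with hrcC. The triple mutant was the lowest and Col-0 with Psm by far the highest, and the groups overlapped. Its rise of 1.72 and that of AT4G27280 by 1.31 were called with genotypes paired (adjusted p = 0.00791 and 0.00634) and not without the replicate block (adjusted p = 0.117 and 0.0673). AT2G41090 rose by 1.34 on average (adjusted p = 0.038), but it was lower with Psm in the triple mutant, at 7.23 against 7.59. Its call was lost after median centring, after quantile normalization and without the Col-0, the double mutant or the pad4-1 pair. CML42 (AT4G20780), a calmodulin-like gene, fell by 1.22 (SE 0.28, adjusted p = 0.00881), with Psm arrays at 2.72 to 4.10 and hrcC arrays at 4.12 to 5.68.

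Of 3 genes with a heavy-metal-associated domain, 2 rose, against 21.5% of all genes. AT5G60800 had 3.48 in the triple mutant, 5.35 in the double mutant, 5.41 in pad4-1 leaves and 6.16 in Col-0 with Psm, against 2.38, 3.81, 2.56 and 3.38 with hrcC, a rise of 2.07 (SE 0.35, adjusted p = 0.0017). The groups overlapped through the triple mutant alone. AT5G52760 rose by 1.09 (adjusted p = 0.0209), a call lost under median centring, under quantile normalization, without the replicate block and without the Col-0 or the pad4-1 pair. Of 3 genes of the cell wall, 1 rose and 1 fell, against 21.5% higher and 8.84% lower over all genes. EXO, a leaf growth gene of brassinosteroid signaling, rose by 1.13 (adjusted p = 0.0142) as deposited. This call was lost under median or quantile scaling, without the replicate block and without the Col-0 pair. ATPMEPCRB fell and GH9C1 was not called.

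Some families mixed called and uncalled genes, and their counts stand beside 21.5% higher and 8.84% lower over all genes. Of 4 lipase and carboxylesterase-like genes 2 rose and 1 fell, of 4 aspartyl protease genes 1 rose and 1 fell, and of 2 berberine bridge enzyme-like genes 1 rose. Of 4 genes of glutathione and sulfate assimilation, GSTF3 and GRX480 rose, while APS3 (0.10, adjusted p = 0.842) and SIR (-0.50, adjusted p = 0.296) were not called. None of the 8 genes of membrane traffic, 4 protein kinase genes, 3 histone H3 genes, 3 genes of the vacuolar proton ATPase, 2 AAA-type ATPase genes and 2 genes of the phosphorylase superfamily was called as deposited, in the fit that called 30.4% of all genes. One of the proton ATPase genes, AT2G16510, was called lower after median centring.

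The genotypes were then compared in how far they differed between the strains. Each mutant's Psm minus hrcC difference was set against that of Col-0. With 1 array per genotype and strain, the spread had to be taken from the 19 other arrays of the series, and the lone arrays were assumed to vary like those. The triple mutant differed from Col-0 for 4 genes (2.21%), all with a higher difference, and 0 (0%) with a lower one. For the double mutant and for pad4-1 the count was 0 of 181 (0%) in each direction by the same limma test. At an unadjusted p under 0.05 there were 34 genes for the triple mutant, 33 for the double mutant and 23 for pad4-1. The lowest adjusted p for the double mutant was 0.0576, and for pad4-1 it was 0.143, for CHI. With the Psm arrays of all 3 sets the counts were 15 for the triple mutant, 9 for the double mutant and 3 for pad4-1. A genotype effect and the variation of a single array cannot be told apart beyond that assumed spread.

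AT4G17470, an alpha/beta hydrolase gene, showed the widest range over genotypes. Its level with Psm was 8.20 in the triple mutant, 7.24 in the double mutant, 7.49 in pad4-1 leaves and 4.66 in Col-0, against 2.38, 4.08, 3.53 and 3.75 with hrcC. Every mutant was far above Col-0 with Psm, and the triple mutant was the lowest genotype with hrcC. The strain difference of 3.46 (SE 0.63, adjusted p = 0.00286) was thus made of 5.82 in the triple mutant, 3.16 in the double mutant, 3.96 in pad4-1 leaves and 0.91 in Col-0. The triple mutant exceeded Col-0 by 4.91 (SE 0.77, adjusted p = 0.00272), while the double mutant (2.25, adjusted p = 0.135) and pad4-1 (3.05, adjusted p = 0.165) did not pass the test.

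AT1G54010, a GDSL lipase-like gene, was not called between the strains, with a mean difference of 0.77 (SE 0.55, adjusted p = 0.309). Its level with Psm was 6.64 in the triple mutant, 5.46 in the double mutant, 4.98 in pad4-1 leaves and 3.22 in Col-0, against 3.90, 4.23, 4.46 and 4.61 with hrcC. The whole order of the genotypes was reversed between the strains: the triple mutant was highest with Psm and lowest with hrcC, and Col-0 the opposite. The triple mutant's difference exceeded that of Col-0 by 4.13 (SE 0.56, adjusted p = 0.00121). For the double mutant the excess was 2.62 (adjusted p = 0.0576) and for pad4-1 it was 1.91 (adjusted p = 0.224).

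UGT84A3 and AT1G62660 were the other genes. UGT84A3 had 5.14 in the triple mutant, 4.51 in the double mutant, 4.55 in pad4-1 leaves and 4.10 in Col-0 with Psm, against 2.67, 3.23, 3.31 and 4.01 with hrcC. The strains were nearly level in Col-0 and furthest apart in the triple mutant, by an excess of 2.38 (SE 0.54, adjusted p = 0.0418). AT1G62660 encodes a vacuolar invertase, which splits sucrose. It had 5.78 in the triple mutant, 5.82 in the double mutant, 5.52 in pad4-1 leaves and 4.85 in Col-0 with Psm, against 4.39, 4.49, 4.46 and 5.65 with hrcC. The 3 mutants were close together and higher with Psm, and Col-0 was lower with Psm, giving an excess of 2.19 for the triple mutant (SE 0.51, adjusted p = 0.0418) and of 2.14 for the double mutant (adjusted p = 0.0576). Both calls were lost after centring on the 20 stable probes, at 2.22 (adjusted p = 0.0684) for UGT84A3 and 2.04 (adjusted p = 0.072) for AT1G62660.

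CCL (AT3G26740) also varied widely between genotypes. It had 5.17 in the triple mutant, 5.55 in the double mutant, 6.15 in pad4-1 leaves and 6.80 in Col-0 with Psm, against 8.13, 8.32, 7.70 and 6.78 with hrcC. It was lower with Psm in the 3 mutants and level in Col-0, with a mean difference of -1.81 (SE 0.46, adjusted p = 0.0142). The triple mutant's difference was lower than that of Col-0 by 2.97 on the log2 scale, with an adjusted p of 0.051.

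**Figure D3:**
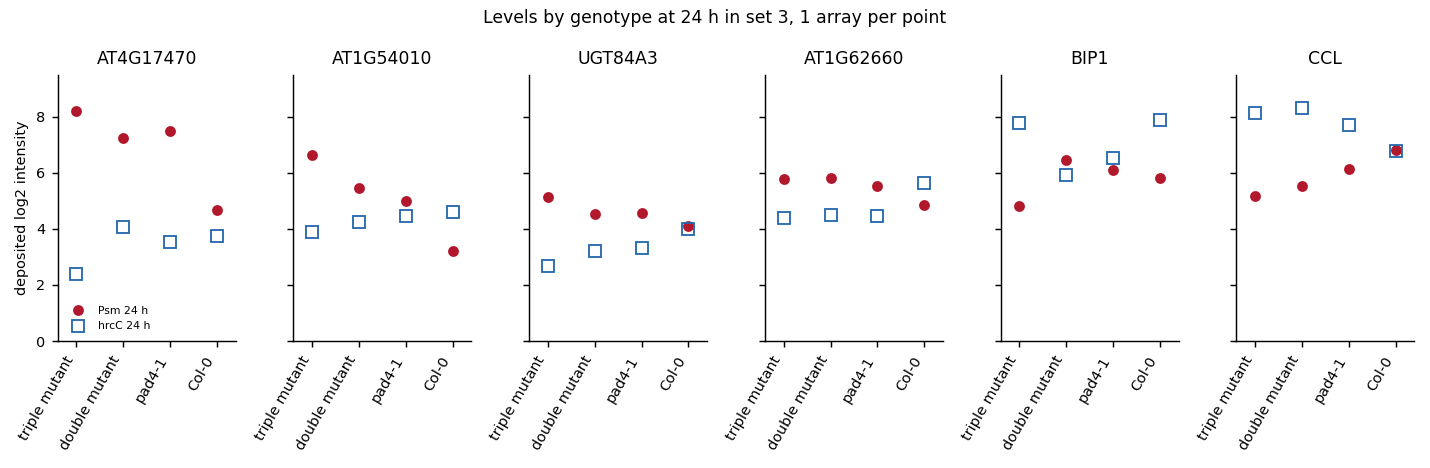
Deposited log2 intensity (y axis) at 24 h with Psm (red circles) and hrcC (open blue squares) in each genotype (x axis), 1 array per point, for the 4 genes with a called difference between the triple mutant and Col-0 and for BIP1 and CCL, which had no such call but were among the 5 widest spreads. In Col-0 the strains were within 0.09 for UGT84A3 and 0.02 for CCL, while in the triple mutant they were 2.47 and 2.95 apart.

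Sets 1 and 2 gave the nearest arrays that the strain contrast of set 3 did not use. They hold Psm at 24 h and hrcC at 9 h for the same genotypes, so strain and time differ together in their 8 pairs. Across the 181 genes, the mean differences of the 2 contrasts correlated at 0.939, as a description over genes. Of the 39 genes called higher in set 3, 32 were higher with Psm in all 8 of these pairs, against 52 of all 181 genes (28.7%). Of the 16 called lower, 13 were lower in all 8 pairs, against 26 of all genes (14.4%). No called gene had a mean of the opposite sign in sets 1 and 2.

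Single genes kept their size to differing degrees. AT2G43620 differed by -5.31 in sets 1 and 2 and by -5.19 in set 3, and AT5G64120 by -3.24 and -3.53. GRX480 differed by 1.52 in sets 1 and 2, against 2.54 in set 3, and AT3G28270 by 1.19, against 2.86. Whether such steps come from the time of the hrcC arrays was not tested, since no genotype has hrcC arrays of both times within 1 set.

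The genotype pattern of AT1G54010 had the same direction in sets 1 and 2, where the differences were 2.08 and 2.09 in the triple mutant and -1.35 and -0.43 in Col-0. For AT4G17470 they were 4.73 and 4.80 in the triple mutant and 0.56 and 2.40 in Col-0. For UGT84A3 the differences were 0.88 and 1.49 in the triple mutant and 0.38 and -0.01 in Col-0, closer together than in set 3. The pattern of AT1G62660 was not there: the values were 0.50 and 1.17 in the triple mutant and 0.54 and 0.59 in Col-0. BIP1 differed by -1.23 and -1.55 in the triple mutant, 0.79 and -0.26 in the double mutant and -1.16 and -0.94 in Col-0. CCL, level between the strains in Col-0 in set 3, differed there by -1.21 and -1.78 in sets 1 and 2, and by -2.80 and -3.54 in the triple mutant.

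**Figure D4:**
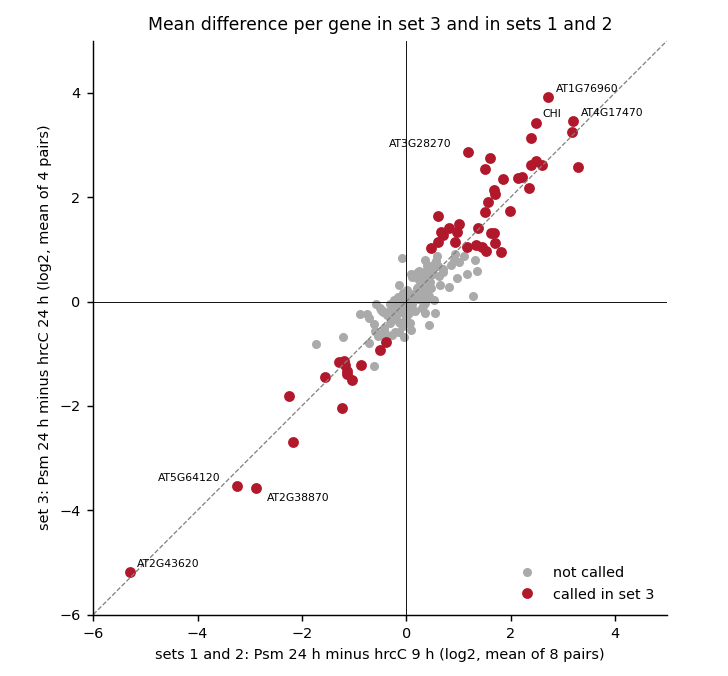
Mean Psm minus hrcC difference per gene in set 3 (y axis, hrcC at 24 h, 4 pairs) against that in sets 1 and 2 (x axis, hrcC at 9 h, 8 pairs), both in log2 intensity; red points are the 55 genes called in set 3, grey points the rest of the 181, and the dashed line marks equal values. The called genes have the same sign on both axes, some of them close to the centre, and AT3G28270 stands above the line.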

How the data were processed

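The log2 values were used as deposited in the series' value table of 576 probes on 27 one-colour arrays, 8 of which enter the strain contrast. The base of the logarithm was read from the values. For the scanner, background correction and normalization, no source used here gives the method. Platform annotation gave a single gene name to 181 probes and no name to 395 (0 carried several), and all 181 names matched the reference table (TAIR10.1, names only). Groups, times and sets follow the labels.

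The main test was limma 3.58.1 (R 4.3.3, lmFit and eBayes) with strain and a genotype block (3 residual degrees of freedom plus 6.14 from the prior), two-sided, Benjamini-Hochberg adjusted over 181 genes, called at an adjusted p under 0.05. An exact sign permutation over 4 pairs cannot go below p = 0.125. Genotype contrasts gave each set 3 array its own coefficient and took the spread from the 19 other arrays (8 residual degrees of freedom). Pairing rests on the labelled genotype: over genes, deviations of same-genotype arrays correlated at 0.33 (triple mutant), 0.09 (double mutant), -0.32 (pad4-1) and 0.16 (Col-0). The highest correlation with an array of another genotype was 0.21, 0.15, 0.42 and 0.09 in the same order. For the double mutant and pad4-1 it was thus above the same-genotype value. P-values over genotypes measure the spread between them.

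Named genes were up to 14 called rises and 14 called falls of the same sign in all genotypes, up to 5 genotype-by-strain calls each way, the 5 widest spreads and all measured list members. Members and lists were chosen with earlier results of these data known, and families after values were seen. Scripts were tested on simulated data. Alternatives were 3 other scalings, dim genes left out, all probes tested, trended and robust eBayes, other sources of the spread, no replicate block, and each genotype pair left out. The planned look at promoter motifs was not run, as no promoter sequences were used here.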

Additional observations from a re-analysis of the deposited data

Results flagged for a closer look

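The strain difference of 4 genes differed between the triple mutant and Col-0 by the test of that difference (limma, adjusted over 181 genes): AT4G17470 by 4.91, AT1G54010 by 4.13, UGT84A3 by 2.38 and AT1G62660 by 2.19. Each rests on 4 single arrays.

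In 7 of the 39 genes selected by the naming rule, and 0 of the 14 chosen after values were seen, 1 genotype's Psm minus hrcC difference stood apart from the other 3 by Dixon's criterion. Chance meets this criterion in about 1 of 20 groups when genes are not chosen by their values. The 39 include genes chosen from these same values for a wide spread or a called genotype contrast, AT1G62660 among them. No share over all genes is given here, so the count is a description and not an excess over chance. Col-0 stood apart in 3 genes. Its difference was -0.75 for WRKY29, against -1.61, -1.60 and -1.58 in the mutants, and -0.49 for CML42, against -1.58, -1.42 and -1.39. For AT1G62660 Col-0 had -0.80, against 1.07, 1.33 and 1.39. The triple mutant stood apart in AT2G28400, at 3.32 against 1.96, 2.01 and 2.18, and in WRKY22, at -1.32 against -0.29, -0.16 and -0.10. The difference of CHI was 4.84 in pad4-1, against 2.85, 2.88 and 3.13 elsewhere. That of AT4G01700 was -0.37 in the double mutant, against -1.95, -1.95 and -1.75.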

How the results depend on the processing

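Of the 55 called genes, 41 remained called after median centring and 41 after quantile normalization, where 25 and 25 genes were higher and 27 and 28 lower, against 39 and 16. A larger fit called more: 103 (70 higher, 33 lower) over all arrays with the set as replicate block, and 90 (62 higher, 28 lower) with the spread from other groups. Without the genotype replicate block the strain contrast, then unpaired with 4 against 4 arrays, gave 51 calls, 47 of them shared. Leaving out 1 genotype pair gave 39 to 57 calls (28 to 42 higher, 11 to 17 lower), the fewest without Col-0. Trended and robust fitting gave 62 calls, stable-probe centring 56 and leaving out the dimmest 25 percent of genes 47. Of the 28 rises and falls selected by the naming rule, 24 kept their calls under every setting tested, and AT2G42360, AT3G51330, AT4G01700 and AT5G60390 did not.

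Genes called in the genotype contrasts changed more. The triple mutant had 7 after median centring, 7 after quantile normalization, 8 over all 576 probes and 15 with the Psm arrays of all 3 sets and set as replicate block, against 4. The double mutant had 8 after quantile normalization, 2 over all probes and 9 with the Psm arrays of 3 sets, and pad4-1 had 3 with those arrays, against 0. UGT76B1 (-0.13) ranged from -0.47 to 0.19 over the left-out pairs, with 0.09 without Col-0 and 0.19 without the triple mutant. Hsp70-2 (0.11) turned to -0.22 (median), -0.16 (quantile) and, without the double mutant, to -0.13, within 0.45 and -0.13 over the left-out pairs. Median centring moves every gene by 0.33, and left-out-pair values are means of the remaining pairs; the cause of the other shifts was not tested. With 1 array per genotype and strain, 8 arrays limit what differences can be called, and unnamed probes are given only as counts.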

Other observations

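Some called genes outside the naming rule, chosen here after their values were seen, belong to transport, lipid and glucosinolate metabolism. AT2G26690, a nitrate transporter-type gene, had 7.56 in the triple mutant, 6.22 in the double mutant, 6.79 in pad4-1 leaves and 6.40 in Col-0 with Psm, against 5.14, 4.51, 4.31 and 4.45 with hrcC. Its rise of 2.14 (SE 0.26, adjusted p = 0.00026 in limma) came with no overlap of the arrays. AT1G67360, a gene for a protein that coats lipid droplets, rose by 1.90 (SE 0.28, adjusted p = 0.000649), at 6.51 to 7.24 with Psm and 4.72 to 5.17 with hrcC. AT2G25450, a dioxygenase gene that modifies glucosinolate side chains, rose by 1.65 (SE 0.35, adjusted p = 0.00634), with a difference of 0.76 in the triple mutant and 2.82 in pad4-1. ATG8E (AT2G45170), an autophagy gene, rose by 1.31 (SE 0.38, adjusted p = 0.0246), by 2.54 in Col-0 and by 0.11 in the double mutant, and lost its call after median centring, after quantile normalization and without the Col-0 pair (0.90, adjusted p = 0.118).

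Over all 576 probes the same test called 185, 137 higher and 48 lower with Psm. Of the 395 unnamed probes, 98 were higher and 32 lower.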
